A study of Homo sapiens with 4 samples.

Results

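The genes of the cytoplasmic translation initiation factors (eIF) and elongation factors (eEF) were followed by RNA sequencing in Ishikawa cells, a human endometrial adenocarcinoma line. The cells carried a mutant ESR1, the gene of estrogen receptor alpha, which makes the ER-Y537S receptor. Gene symbols that start with EIF1 to EIF6, EEF1 or EEF2 took 71 of the 26364 rows of the count table. Leaving out 4 EIF2AK kinase genes, 4 antisense genes and 2 pseudogenes (EEF1DP3 and EIF3IP1) gave 61 factor genes, of which 54 were among the 15599 genes with enough counts to test.

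Per the labels, cells of 2 mutant clones were kept for at least 5 days in medium without phenol red and with hormone-stripped serum. For the final 8 h they received 10 nM E2 (estradiol, the ligand of the receptor) or the solvent alone, 0.1% DMSO. Every library thus came from a mutant line, so both groups share the mutation and the hormone-free medium, and no receptor wild-type cells enter any comparison. The column names carry the tags A4 and B212, each with 1 DMSO and 1 E2 library. No label mentions these tags, so a tag cannot be matched to a numbered clone, and each clone stands for itself alone.

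Initiation factors bring the small ribosomal subunit, the initiator tRNA and the capped mRNA together. eIF1, eIF1A, eIF2 and eIF5 act in the search for the start codon, eIF2B recharges eIF2 with GTP, eIF3 is the large scaffold on the small subunit, and eIF4F (eIF4E, eIF4G and eIF4A) binds and opens the cap end of the mRNA. Elongation factor eEF1A then delivers aminoacyl-tRNA, the eEF1B subunits recharge eEF1A with GTP, and eEF2 moves the ribosome along the mRNA. Many of the mRNAs for these factors and for ribosomal proteins begin with a terminal oligopyrimidine tract (TOP), a C followed by a run of C and T letters that couples their translation to the kinase mTOR.

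The libraries held 71575816 to 85222856 counts, and the factor genes took 2.105% to 2.263% of them. In every library the tested factor gene with the fewest counts had 69 to 110 counts. Of the 8 epithelial and line markers looked at, including EPCAM, KRT8, PAX8 and ESR1, all were present, at 8.24 to 830 CPM (counts per 1000000 of the library, after scaling). Of the 3 immune markers CD3E was listed at 0 in all 4 libraries, and their sum was 0.382 to 0.524 CPM. Of the 3 endothelial markers PECAM1 was listed at 0 and VWF had 2.04 to 4.36 CPM, with a sum of 2.11 to 4.5 CPM. The summed level of the 4 stromal markers was 34.8 to 129 CPM and higher in A4, nearly all of it COL1A1, while DCN stayed at or below 0.0136 CPM. Its part in the differences between the tags was not tested. CPM are shares of a library, so fewer cells and less RNA per cell cannot be told apart in them.

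Per kilobase of transcript, the elongation factor genes EEF2 and EEF1A1 had the highest mean levels. Levels per length are RPKM, that is CPM per kilobase of 1 annotated transcript of the gene, and shift with the transcript chosen. Mean RPKM levels over the 4 libraries were 1144 for EEF2, 679 for EEF1A1, 548 for EIF4G2, 468 for EIF5A and 462 for EEF1G, with SDs across libraries of 162, 130, 70.7, 84.3 and 35.7. The order of EIF4G2, EIF5A and EEF1G lies within these SDs. At the other end, EEF2KMT had a mean of 1.74 RPKM and EEF1A2, the eEF1A copy of muscle and neurons, 0.555 RPKM.

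Several paralogues differed widely in level. The RPKM level of EEF1A1 was 1040 to 1640 times that of EEF1A2 in the 4 libraries, and that of EIF5A 31.0 to 43.4 times that of EIF5A2. EIF1 stood at 4.31 to 4.40 times EIF1B in every library. The cap-binding gene EIF4E had 0.0709 to 0.0832 times the RPKM of its relative EIF4E2 and 1.12 to 1.35 times that of EIF4E3. These ratios rest on annotated transcripts of 11523 bases for EIF4E, 1604 for EIF4E2 and 9949 for EIF4E3. Without the length, EIF4E and EIF4E2 had 78.6 and 143 CPM in the A4 DMSO library. The scaffold gene EIF4G1 was below EIF4G2, at a ratio of 0.231 to 0.293, and above EIF4G3, at 5.83 to 8.34. EIF2S1 and EIF2S2, for the alpha and beta subunits of eIF2, lay close together, with ratios of 1.00 to 1.15.

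Of the 61 genes, 7 did not pass the count filter. EIF4A1, the usual eIF4A helicase gene, and the near-identical pair EIF3C and EIF3CL were listed at 0 in all 4 libraries, as was the readthrough gene EEF1E1-BLOC1S5. A count of 0 allows up to 0.0352 to 0.0419 CPM in these libraries (3 counts, counting error only). The row of the readthrough gene SENP3-EIF4A1 held 15 to 24 counts. All cells use eIF4A and eIF3, so a listed 0 at EIF4A1, EIF3C and EIF3CL is not read here as absence of the mRNA, and the step that left these rows empty was not tested. EIF4EBP3 had 1 to 4 counts, with 54 to 62 counts in the overlapping row ANKHD1-EIF4EBP3, and EIF4E1B, the germ-cell form of eIF4E, had 0 to 7. EIF1AY also fell under the filter. Among the tested genes, EIF5AL1 is a near-identical copy of EIF5A, so reads could be split between them and both values are uncertain.

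The comparison of E2 with DMSO asks how expression differs with the ligand in these mutant lines. Without a term for the tag, edgeR's quasi-likelihood test called 0 of the 54 factor genes (background 0% of the 15599 genes; smallest adjusted p of a factor gene 0.9999), and 0 of the 54 had an unadjusted p under 0.05. DESeq2 and limma-voom in the same design also called 0. The A4 and B212 libraries lay far apart, with a first principal component of 84.1% of the variance that separated them. With the tag as a replicate block (the blocked fit), edgeR called 10 of the 54 factor genes (18.5%) beside 9.56% of all genes. Of these, 9 were higher with E2 (background 6.13%) and 1 was lower (background 3.44%). The changes were small: log2 fold changes of the 54 genes ran from −0.25 to 0.36, with a median of 0.04 beside −0.01 for all genes. E2 calls in the text that follows come from the blocked fit, and each gives its log2 fold change ± SE and edgeR's adjusted p.

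The number called depended on the tool. With the block kept, DESeq2 called 4 of the 54 factor genes (3.42% of all genes), limma-voom 6 (7.30% of all genes) and edgeR with DESeq2 size factors 3 (4.60% of all genes). After the trend with GC content and transcript length was taken out, edgeR called 2, a share of the 54 below the 6.61% of all genes. An excess of factor genes over the background was therefore not seen in every setting. EIF4E2 was called in each of these and with scaling by library size only, with adjusted p-values of 0.00679 to 0.0456. With DESeq2, EIF3I, EIF3M, EIF3K, EIF5A2, EEF1E1 and EIF1AX lost their calls. With limma-voom, EIF3I, EEF2, EIF3K and EIF5A2 did. With DESeq2 size factors only EEF1B2, EIF4E2 and EEF1E1 stayed called.

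**Figure D1:**
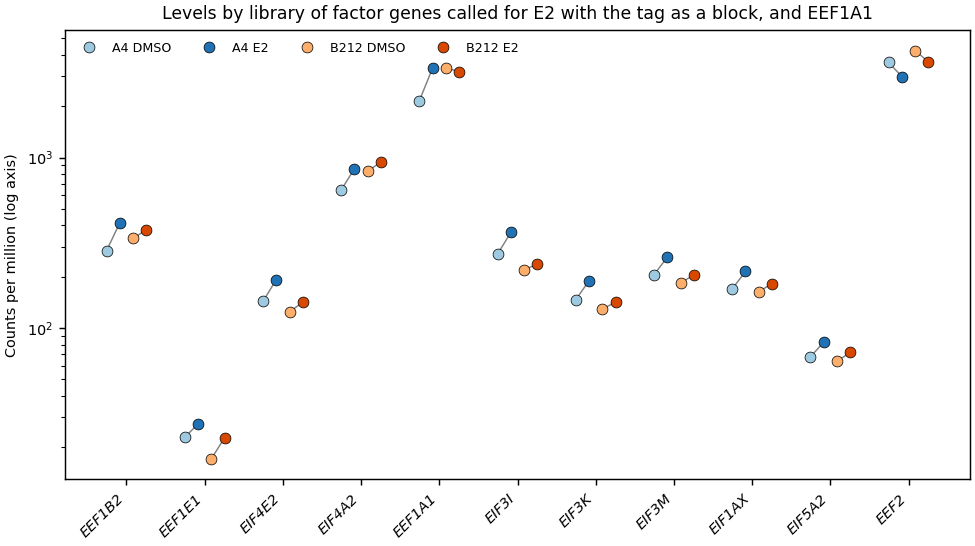
CPM (log axis) in each of the 4 libraries for the 10 factor genes called in the blocked fit of E2, and for EEF1A1; each point is 1 library and lines join the DMSO and E2 library of a tag. Both lines slope up for 9 called genes and down for EEF2, while EEF1A1 climbs in A4 and falls slightly in B212.

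Among the factors of start codon selection, 1 of 10 tested genes was called (10%, close to the 9.56% of all genes). EIF1AX, the X-linked gene of eIF1A, measured 169 CPM in the A4 DMSO library and 164 CPM in the B212 DMSO library, and 215 and 182 CPM with E2. Both E2 values lay above both DMSO values, and the gene was higher by 0.25 ± 0.07 (adjusted p = 0.0358). EIF5, which makes eIF2 hydrolyse GTP at the start codon, had 896 and 585 CPM with DMSO and 1076 and 651 CPM with E2, and was not called (0.21 ± 0.07, edgeR adjusted p = 0.0781). The eIF2 subunit genes EIF2S1, EIF2S2 and EIF2S3 had log2 fold changes of 0.17, 0.14 and 0.10 and none was called. None of the 5 eIF2B genes was called, with log2 fold changes between −0.0032 and 0.19.

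In eIF3, 3 of 12 tested subunit genes were called (25%, beside 9.56% of all genes), all higher. EIF3I had 272 CPM (A4) and 219 CPM (B212) with DMSO and 364 and 237 CPM with E2, higher by 0.27 ± 0.08 (edgeR adjusted p = 0.0355). EIF3K had 146 and 130 CPM with DMSO and 190 and 142 CPM with E2, higher by 0.25 ± 0.07 (edgeR adjusted p = 0.0378). EIF3M had 205 and 184 CPM with DMSO and 260 and 205 CPM with E2, higher by 0.25 ± 0.07 (edgeR adjusted p = 0.0343). For each of these 3 genes the groups overlapped, since the A4 DMSO level exceeded the B212 E2 level, by very little for EIF3M. EIF3I was above its DMSO library in each tag taken singly, by 0.42 in A4 and 0.11 in B212. EIF3M belongs to the core of the complex. The core gene EIF3E and the core gene EIF3H had log2 fold changes of 0.22 and 0.20, and the largest subunits EIF3A and EIF3B had −0.21 and −0.18. None of these 4 was called by edgeR (adjusted p of 0.0638, 0.0878, 0.0840 and 0.121).

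Of the 10 tested genes of cap binding and mRNA opening, 2 were called (20%, beside 9.56% of all genes), both higher. EIF4E2, a cap-binding relative of eIF4E that represses translation of its mRNAs, had 143 and 124 CPM with DMSO in A4 and B212 and 192 and 142 CPM with E2. It was higher by 0.31 ± 0.07 (edgeR adjusted p = 0.0131), although the B212 E2 level did not exceed the A4 DMSO level. EIF4A2, the second eIF4A helicase gene, had 646 and 833 CPM with DMSO and 859 and 942 CPM with E2. Its groups did not overlap and it was higher by 0.29 ± 0.08 (edgeR adjusted p = 0.0219). The scaffold gene EIF4G1 had 972 and 719 CPM with DMSO and 786 and 668 CPM with E2, and its log2 fold change of −0.21 ± 0.08 was not called (edgeR adjusted p = 0.0930). EIF4E itself had a log2 fold change of 0.21 (edgeR adjusted p = 0.0841), with E2 levels of 97.7 and 79.3 CPM above DMSO levels of 78.6 and 74.2 CPM. None of the 3 tested eIF4E partners was called: EIF4EBP1 and EIF4EBP2, whose proteins hold eIF4E back, had 0.09 and −0.15, and EIF4ENIF1 had −0.05.

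The elongation factors gave the largest rise and the single fall. EEF1B2, for the beta subunit of the exchange factor, had 284 and 335 CPM with DMSO in A4 and B212 and 414 and 378 CPM with E2. The groups did not overlap, and EEF1B2 was higher by 0.36 ± 0.08 (edgeR adjusted p = 0.0106), with 0.54 in A4 and 0.17 in B212. EEF1E1, whose protein is an auxiliary part of the multi-tRNA synthetase complex, was a low gene at 22.8 and 17.1 CPM with DMSO and 27.4 and 22.7 CPM with E2. It was higher by 0.34 ± 0.09 (edgeR adjusted p = 0.0187). EEF2 had 3614 and 4238 CPM with DMSO and 2987 and 3643 CPM with E2, lower by −0.25 ± 0.08 (edgeR adjusted p = 0.0477). Its fall was alike in the tags, −0.27 in A4 and −0.22 in B212, yet the groups overlapped because B212 stood above A4 throughout. EIF5A2, a second gene for the hypusine-bearing factor eIF5A, had 67.7 and 63.8 CPM with DMSO and 82.6 and 71.9 CPM with E2, without overlap, and was higher by 0.23 ± 0.07 (edgeR adjusted p = 0.0489). Its call was lost in every other blocked setting tried, with an adjusted p of 0.157 in DESeq2 and 0.0607 in limma-voom.

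EEF1A1 was the factor gene whose E2 values differed most between the tags. It had 2155 CPM in the A4 DMSO library against 3355 CPM in A4 E2, 3356 CPM in B212 DMSO and 3192 CPM in B212 E2. The A4 DMSO library was thus the low one and the other 3 lay close together. Its log2 fold change with E2 was 0.64 within A4 and −0.07 within B212, and the blocked fit did not call it (0.28 ± 0.11, edgeR adjusted p = 0.112). Without the A4 DMSO library the value from the fit with no block was −0.04, a fit in which the tags are no longer balanced.

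**Figure D2:**
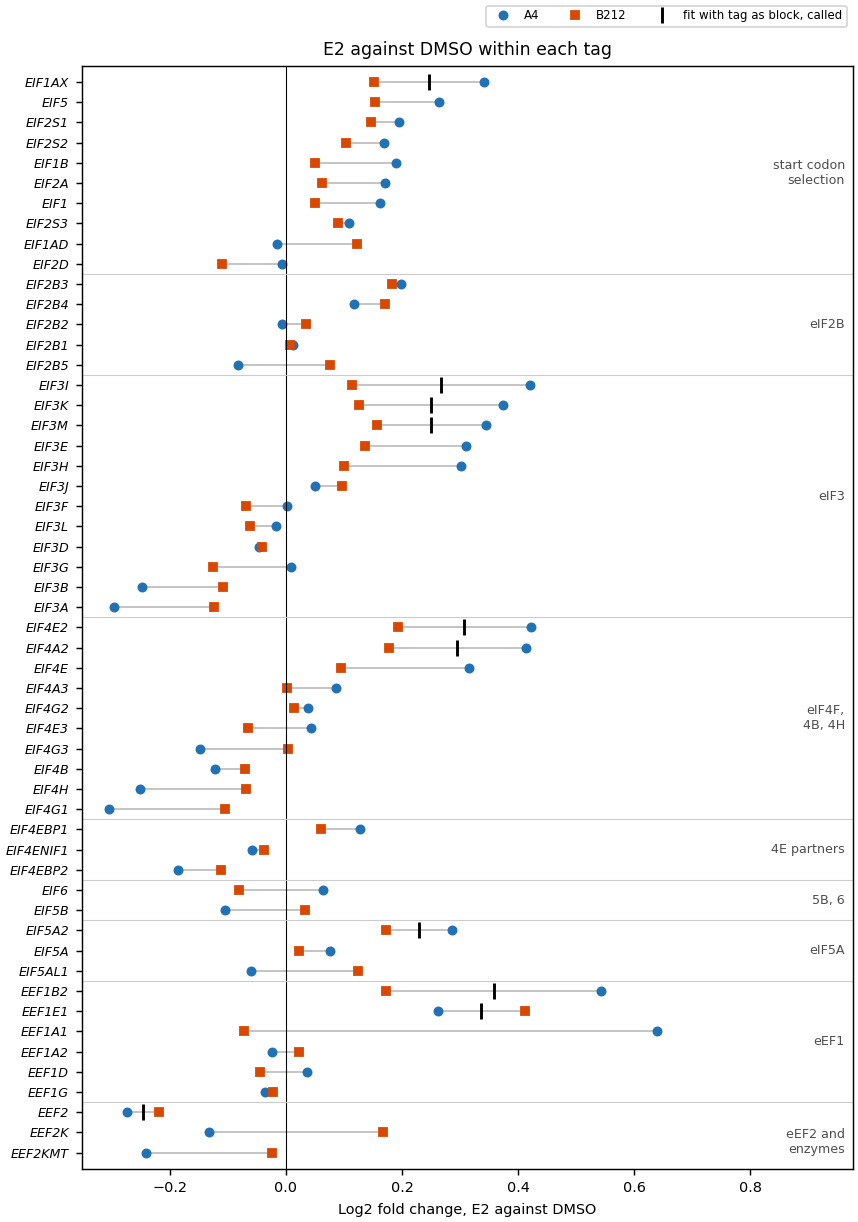
Log2 fold change of E2 against DMSO in A4 (circles) and B212 (squares) for the 54 tested factor genes, grouped by role; black ticks mark the fitted value of the 10 genes called in the blocked fit. Values ran the same way in both tags for 40 genes, and EEF1A1 shows the widest gap, 0.64 against −0.07.

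In the 2 tags taken singly, 40 of the 54 factor genes (74.1%) moved in one direction with E2, beside 70.1% of all genes tested. Of these, 27 were above their DMSO library in both tags (50%, beside 33.3% of all genes). The other 13 were below it in both (24.1%, beside 36.8% of all genes). The A4 differences were wider than those of B212 for each called gene but EEF1E1. Values with E2 lay above those with DMSO without overlap for 6 factor genes (EEF1B2, EIF4A2, EIF1AX, EIF5A2, EIF3E and EIF4E), 11.1% beside 13.2% of all genes. They lay below without overlap for 2 (EIF4H and EIF4EBP2), 3.70% beside 11.8% of all genes.

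Transcript length and GC content moved with the E2 changes. The 9 factor genes called higher had a median transcript of 1604 bases and a median GC content of 40.7%, EEF2 had 3164 bases and 59.9%, and the 44 not called had medians of 2656 bases and 47.0%. Across the 54 genes the E2 log2 fold change had a Pearson r of −0.24 with length and −0.43 with GC content. Across 14601 genes with a known length, the same correlations were −0.29 and −0.19. Genes of a library share its preparation, so these correlations only describe the 4 libraries. After removal of the trend the log2 fold change of EIF4E2 was 0.26 and that of EIF3M 0.20, both still called. The other 8 called genes lost their call. Among them EEF1E1 went from 0.34 to 0.05, EIF3K from 0.25 to 0.12, EIF4A2 from 0.29 to 0.14, EIF1AX from 0.25 to 0.15 and EIF5A2 from 0.23 to 0.15. EEF2 went from −0.25 to −0.15 (edgeR adjusted p = 0.277), and EEF1B2 from 0.36 to 0.21 (edgeR adjusted p = 0.0504).

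The B212 cells differed from the A4 cells more than E2 did from DMSO. With treatment as a covariate, edgeR called 36 of the 54 factor genes between the tags (66.7%), beside 51% of all genes. Of these, 10 were higher in B212 (background 25.2%) and 26 were lower (background 25.8%). The median log2 fold change, B212 against A4, was −0.16 for the factor genes and 0.00 for all genes. Both B212 values lay below both A4 values for 32 factor genes (59.3%, beside 32.8% of all genes) and above for 9 (16.7%, beside 34.7%).

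These counts compare 2 lines of cells with 2 libraries each, not 2 genotypes, and each line's DMSO and E2 libraries serve as its replicates. Leaving out a library, which also needs a fit with no treatment term, left 4 genes called without the B212 DMSO library (19.8% of all genes) and 8 without B212 E2 (20.6% of all genes), shares of the 54 below those of all genes. It left 21 without A4 E2 (32.8% of all genes) and 28 without A4 DMSO (36.1% of all genes). The fit with no treatment term on all 4 libraries called 17 (28.6% of all genes). EIF4EBP1, EIF5, EIF2B2 and EEF2KMT were the 4 genes called without the B212 DMSO library, all lower in B212.

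**Figure D3:**
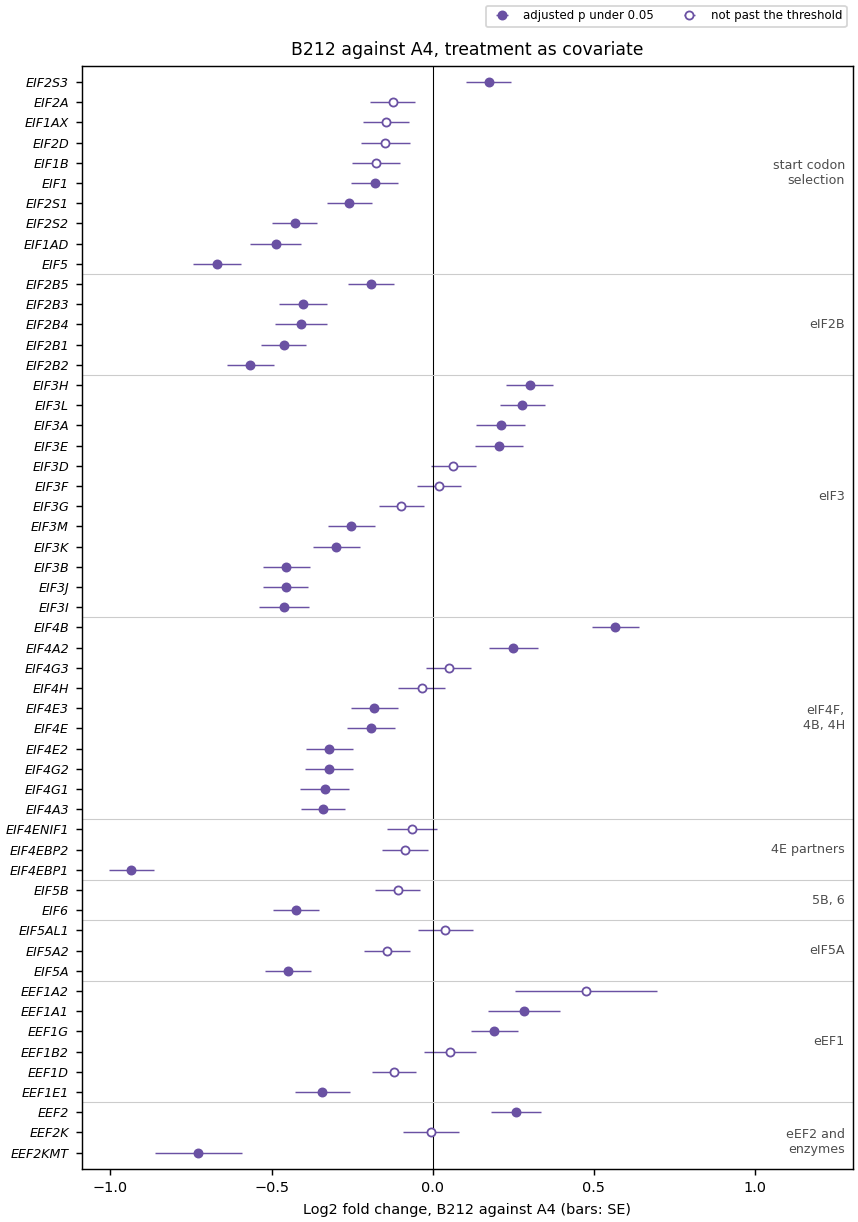
Log2 fold change of B212 against A4 (bars: SE of the fit on 4 libraries, treatment as covariate) for the 54 tested factor genes by role; filled points have an adjusted p under 0.05. All 5 eIF2B genes lie left of 0, EIF4EBP1 lies farthest left at −0.93, and EIF4B lies farthest right at 0.57.

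Start codon factors were mostly lower in B212, with 5 of 10 called lower and 1 higher (60%, beside 51% of all genes). EIF5 had 896 CPM (DMSO) and 1076 CPM (E2) in A4 and 585 and 651 CPM in B212, with a log2 fold change of −0.67 ± 0.07 (edgeR adjusted p = 2.82e-07). EIF1AD, whose protein has an eIF1A-like domain, was lower at −0.49, EIF2S2 at −0.43, EIF2S1 at −0.26 and EIF1 at −0.18. The EIF1 call was lost with DESeq2, with library size only and, like that of EIF2S1, with no treatment term. EIF2S3, the gene of the gamma subunit of eIF2, was the one called higher, at 0.17 ± 0.07 (edgeR adjusted p = 0.0453). That call was lost with DESeq2 size factors (0.0620), DESeq2 (0.124), no filter (0.134), the trend removed (0.163) and no treatment term (0.213), each an adjusted p. EIF2S3 stood at 1.48 and 1.39 times the RPKM of EIF2S1 in A4 and at 1.98 and 1.90 times in B212.

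All 5 eIF2B genes were called lower in B212 (100%, beside 25.8% of all genes), with a median of −0.41. EIF2B2, the beta subunit gene, had 65.7 and 65.4 CPM in the A4 libraries and 43.8 and 44.8 CPM in the B212 libraries, a log2 fold change of −0.57 ± 0.07 (edgeR adjusted p = 2.68e-06). EIF2B1 followed with −0.46, EIF2B4 with −0.41, EIF2B3 with −0.40 and EIF2B5, the catalytic epsilon subunit gene, with −0.19. In each of these genes both B212 values lay below both A4 values, as in 32.8% of all genes. The EIF2B5 call was lost with DESeq2, with library size only and with no treatment term.

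The eIF3 complex split, with 4 subunit genes higher in B212 and 5 lower (75% called, beside 51% of all genes). EIF3H had 224 and 276 CPM in A4 and 296 and 317 CPM in B212 (0.30 ± 0.07, edgeR adjusted p = 0.00191). EIF3L was higher by 0.28, EIF3A by 0.21 and EIF3E by 0.20. The calls of EIF3A and EIF3E were lost with DESeq2, with no filter and with the trend removed. EIF3A was at 0.06 without the A4 E2 library, and EIF3E was at 0.06 with the trend removed and at 0.05 without the A4 DMSO library. Lower were EIF3I (−0.46), EIF3J (−0.46), EIF3B (−0.45), EIF3K (−0.30) and EIF3M (−0.25). With no treatment term, EIF3A, EIF3E, EIF3H, EIF3L, EIF3K and EIF3M lost their calls. EIF3J, the gene of a loosely bound subunit, had 158 and 164 CPM in A4 and 113 and 121 CPM in B212. EIF3D, EIF3F and EIF3G were not called, with log2 fold changes of 0.06, 0.02 and −0.10.

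Of the cap-binding and helicase genes, 2 were called higher and 6 lower in B212 (80%, beside 51% of all genes). EIF4B, whose protein stimulates the eIF4A helicase, had 751 and 690 CPM in A4 and 1093 and 1040 CPM in B212, the largest called rise among the factor genes (0.57 ± 0.07, edgeR adjusted p = 2.37e-06). EIF4A2 was higher by 0.25, while EIF4A3, the helicase gene of the exon junction complex, was lower at −0.34, so that the RPKM ratio of EIF4A2 to EIF4A3 went from 2.61 and 3.27 in A4 to 4.14 and 4.67 in B212. The EIF4A2 levels of the tags overlapped, with 859 CPM in A4 E2 and 833 CPM in B212 DMSO. Its call was lost with the trend removed and with no treatment term. Leaving out a library gave EIF4A2 values of 0.0466 to 0.45. The scaffold genes EIF4G1 and EIF4G2 were lower at −0.33 and −0.32, and EIF4G3 at 0.05 was not called. The EIF4G1 call was lost with no treatment term. All 3 tested cap-binding genes were lower, EIF4E2 at −0.32, EIF4E at −0.19 and EIF4E3 at −0.18. With no treatment term all 3 lost their calls, and EIF4E and EIF4E3 also lost theirs with DESeq2 and with library size only. The EIF4E levels of the tags overlapped, with 78.6 CPM in A4 DMSO and 79.3 CPM in B212 E2.

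EIF4EBP1, the best known inhibitor of eIF4E and a target of mTOR, showed the largest difference of any factor gene. It had 122 and 134 CPM in the A4 libraries and 65.6 and 68.4 CPM in the B212 libraries, a log2 fold change of −0.93 ± 0.07 (edgeR adjusted p = 9.07e-10). Its relative EIF4EBP2 was not called, at −0.09. The RPKM ratio of EIF4EBP2 to EIF4EBP1 was 0.434 and 0.349 in A4 and 0.745 and 0.661 in B212. EIF6, which keeps the large ribosomal subunit apart from the small one, was lower at −0.42, and EIF5A at −0.45, with EIF5B (−0.11), EIF5A2 (−0.14) and EIF5AL1 (0.04) not called.

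Of the 6 eEF1 genes, 2 were called higher in B212 and 1 lower (50%, close to the 51% of all genes), and EEF2 was called higher. EEF2 was higher in B212 by 0.26 ± 0.08 (edgeR adjusted p = 0.00844), EEF1A1 by 0.28 ± 0.11 (edgeR adjusted p = 0.0391) and EEF1G, the gamma subunit gene of the exchange factor, by 0.19 ± 0.07 (edgeR adjusted p = 0.0328). The EEF1A1 difference again rested on the low A4 DMSO library, without which it was −0.04, and DESeq2, limma-voom and DESeq2 size factors did not call it. EEF1E1 was lower at −0.34, and EEF1B2 (0.05), EEF1D (−0.12) and EEF1A2 (0.48) were not called. With no treatment term EEF2, EEF1A1, EEF1G and EEF1E1 lost their calls. Of the enzyme genes, EEF2KMT, a methyltransferase of eEF2, was lower at −0.73 ± 0.14 (edgeR adjusted p = 1.54e-04) from 5.64 and 4.77 CPM in A4 to 3.16 and 3.11 CPM in B212. EEF2K, the kinase that stops eEF2, had −0.01 and was not called.

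Known TOP mRNAs among the factor genes differed from the remaining ones in the tag comparison by count. Of 10 tested genes listed from general knowledge as TOP mRNAs (EEF1A1, EEF1A2, EEF1B2, EEF1D, EEF1G, EEF2, EIF3E, EIF3F, EIF3H and EIF4B), 6 were called higher in B212 and 0 lower, and their median was 0.23 on the log2 scale. Of the other 44 tested factor genes, 4 were called higher and 26 lower, with a median of −0.22. The background was 25.2% higher and 25.8% lower. Of the 6, DESeq2 did not call EEF1A1, EEF1G and EIF3E, and with no treatment term only EIF4B was called. With E2, 1 of the 10 was called higher (EEF1B2) and 1 lower (EEF2), beside 8 higher and 0 lower of the 44. Over all genes 6.13% were called higher and 3.44% lower with E2. The difference between these lists was not tested.

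The first transcribed letters were read for genes whose RefSeq window was searched. RefSeq promoter windows (GRCh38.p14, a newer build than the hg19 that the submitters' processing notes name) were searched on the gene's strand for a C at the listed start followed by at least 4 further C or T letters. Of the 44 tested factor genes searched, 12 (27.3%) had such a start, beside 6.90% of 11250 tested genes with a window and 4.07% of all 35116 windows in the table. EEF1D, EIF3E, EIF3H and EIF4EBP1 were left out of the search by their chromosome, a step not applied to all genes. A gene with several listed starts was taken by the first that met the rule, so the share of windows is not a share of genes. Of the 10 listed TOP genes, EEF1A1, EEF1B2, EEF2, EIF3F and EIF4B had such a start, EEF1G did not, and EEF1A2, EEF1D, EIF3E and EIF3H were not searched. The windows shown are 30 bases, 15 before the start and 15 from it, 5′ to 3′ on the gene's strand, with the pyrimidine run at the start in capitals. They are those of the factor genes with a TOP-like start that were called in either comparison.
EEF1B2 (chr2:206159880-206159909, plus strand): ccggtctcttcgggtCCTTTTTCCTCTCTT
EEF1A1 (chr6:73521018-73521047, minus strand): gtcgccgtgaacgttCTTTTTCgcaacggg
EEF2 (chr19:3985449-3985478, minus strand): gttgacgtcagcgttCTCTTCCgccgtcgt
EIF4B (chr12:53006441-53006470, plus strand): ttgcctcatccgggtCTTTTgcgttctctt
EIF4A2 (chr3:186783562-186783591, plus strand): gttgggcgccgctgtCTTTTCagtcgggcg
EIF2S3 (chrX:24054941-24054970, plus strand): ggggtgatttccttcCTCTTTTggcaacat
EIF3K (chr19:38619173-38619202, plus strand): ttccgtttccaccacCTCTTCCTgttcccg
EIF3M (chr11:32583816-32583845, plus strand): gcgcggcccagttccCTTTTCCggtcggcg

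Called higher in B212 were EEF1A1, EEF2, EIF4B, EIF4A2 and EIF2S3, while EEF1B2 was called higher with E2. With no treatment term, EEF1A1, EEF2, EIF4A2 and EIF2S3 lost the call in B212. EIF3K and EIF3M were called lower in B212, and they too lost the call with no treatment term. Among the 12 factor genes with a TOP-like start, 5 were called higher and 2 lower in B212, with a median of 0.06 on the log2 scale. Among the 32 searched without one, 1 was called higher and 21 lower, with a median of −0.29. Over all tested genes, 189 of 776 genes with such a start were called higher and 171 lower, against 2579 higher and 2908 lower of 10474 without one. With E2, 5 of the 12 were called (4 higher and 1 lower) and 5 of the 32 (all higher), beside 13.5% of all genes with such a start and 9.48% of those without. A match describes letters at a listed start and is not evidence of how the mRNA is translated.

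**Figure D4:**
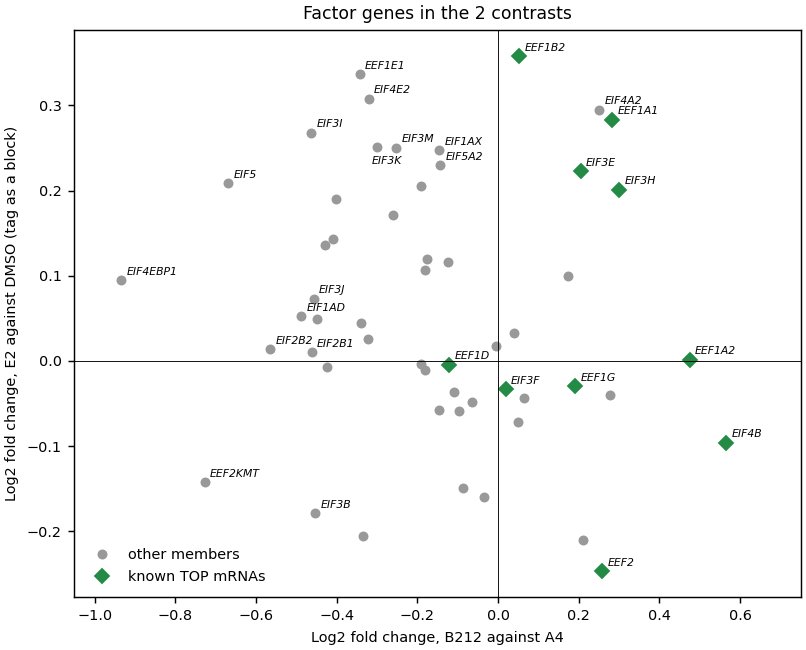
Log2 fold change of E2 against DMSO (blocked fit, vertical axis) beside that of B212 against A4 (horizontal axis) for the 54 tested factor genes; green diamonds are the 10 known TOP mRNAs. Both comparisons use the same 4 libraries; all diamonds but EEF1D lie right of 0, whereas most grey points lie left of it.

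Genes that act on these factors were read from lists of their regulators and partners. Of 14 genes of mTORC1 signalling and cap-binding control, 0 were called higher and 1 lower with E2 (7.14%, beside 9.56% of all genes). In B212, 2 were called higher and 7 lower (64.3%, beside 51% of all genes). The one lower with E2 was MKNK2, a kinase of eIF4E (−0.24 ± 0.07, edgeR adjusted p = 0.0380), which was also higher in B212 (0.36). MTOR, the kinase itself, was lower in B212 at −0.54, its partner RPTOR at −0.45 and the S6 kinase gene RPS6KB2 at −0.45. Of 9 genes of eIF2 phosphorylation control, 0 were called with E2, beside 9.56% of all genes. In B212, 3 were called (33.3%, beside 51% of all genes), all lower. These were ATF4 (−0.46), whose mRNA is translated when eIF2 is phosphorylated, EIF2AK4 (−0.29), an eIF2 kinase gene, and its activator GCN1 (−0.25).

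A list of enzymes that modify the elongation factors and eIF5A held the genes of hypusine and diphthamide synthesis and METTL13, a methyltransferase of eEF1A. Of its 10 tested genes, 3 were called with E2 (30%, beside 9.56% of all genes), all higher. All belong to the diphthamide pathway: DNAJC24 (0.34 ± 0.08, edgeR adjusted p = 0.0127), DPH5 (0.31 ± 0.08, edgeR adjusted p = 0.0168) and DPH3 (0.28 ± 0.07, edgeR adjusted p = 0.0260). The diphthamide genes DPH1, DPH2, DPH6 and DPH7 were not called (0.07, 0.08, 0.22 and 0.15). EEF2, the substrate of that pathway, was the factor gene called lower, and a link between these calls was not tested. For the genes of this list no other setting was read. The hypusine enzyme genes DHPS and DOHH were not called with E2. Between the tags 1 was higher and 6 lower in B212 (70%, beside 51% of all genes), METTL13 among the lower. The smallest p-values belonged to DPH2 (−0.94 ± 0.09, edgeR adjusted p = 1.63e-08), which had 45.7 and 43.9 CPM in A4 and 21.6 and 25.1 CPM in B212, and to DOHH (−0.67), the hydroxylase that completes hypusine.

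Of 15 tested genes of poly(A) binding, scanning, reinitiation and termination, 0 were called with E2, beside 9.56% of all genes. Between the tags 3 were higher and 5 lower in B212 (53.3%, close to the 51% of all genes). PABPC1, the main cytoplasmic poly(A)-binding protein gene and itself a TOP mRNA, was higher at 0.46 ± 0.08 (edgeR adjusted p = 3.73e-05). The ribosome rescue gene PELO was lower at −0.34 and the release factor gene ETF1 at −0.29. Of 6 mitochondrial translation factor genes, 1 (16.7%, beside 9.56% of all genes) was called with E2, GFM2, which was higher (0.24). In B212, 1 was higher (MTIF3, 0.37) and 4 lower, among them GFM1 (−0.36) and TUFM (−0.34), 83.3% called beside 51% of all genes.

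In their counts of calls, the factor genes lay between the gene families nearest in function. Of 80 ribosomal protein genes, 39 were called higher and 1 lower with E2 (50%, beside 9.56% of all genes), at a median of 0.26 on the log2 scale. In B212, 15 were higher and 5 lower (25%, beside 51% of all genes). Of 20 cytoplasmic aminoacyl-tRNA synthetase genes, 0 were called with E2, and 1 was higher and 16 lower in B212 (85%, beside 51% of all genes). The difference between these families was not tested. Ribosomal protein and synthetase genes were counted in these edgeR fits only, not with another tool or with the length and GC trend removed.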

How the data were processed

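Poly(A) RNA from 2 DMSO and 2 E2 cultures was sequenced with a stranded kit and 500 ng of input, per the labels. The deposited values are raw read counts per gene symbol. The submitters' processing notes name hg19, HISAT2, SAMtools, featureCounts and DESeq2, without roles; versions, annotation and strand setting are not given in the sources used here, so overlapping, antisense and near-identical genes are uncertain. The table's remaining 4 value columns fit no sample label and were not used. Nothing states that libraries came from separate cultures, so p-values describe these libraries only. edgeR's test shares variance estimates across all tested genes. An SE is thus not the spread of a gene's own E2 changes between the tags. EEF1A1, for example, had 0.64 in A4 and −0.07 in B212, with an SE of 0.11 in the blocked fit.

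From the deposited counts, genes were kept by filterByExpr (minimum count 10), scaled by TMM (factors 0.963 to 1.024) and tested over all 15599 genes with edgeR 4.0.16's quasi-likelihood test and Benjamini-Hochberg adjustment at 0.05. E2 was tested without a block first, then in a blocked fit that takes the tag as replicate. Same-tag libraries deviated together (r = 0.871, a single independent value), and the pairing rests on column names. The biological coefficient of variation was 32.2% without and 5.99% with the block. Tags were compared with treatment as covariate. SEs are the absolute log2 fold change over the root of F, and log2 CPM have a prior count of 2. RPKM and GC content used 1 GENCODE 29 transcript per gene (93.6% of tested genes had one). Alternatives were other scalings, filters, DESeq2 1.42.0, limma-voom (limma 3.58.1), a length and GC trend (mgcv 1.9.3), a fold minimum and leaving out libraries. R 4.3.3, Python 3.11.15 and matplotlib 3.10.9 were used.

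The factor genes, lists and tests were chosen with earlier results of these data known. Named genes are those called for E2, the 10 with the smallest p in each direction between tags, set paralogues, the 5 highest per length, those under the filter, and up to 4 called genes of each other list per comparison. In simulated counts (15599 genes, 200 of them changed by 1 on the log2 scale) that kept the measured tag differences, the unblocked fit recovered 0 and the blocked fit 191, the latter with 14 false calls. Where no tag difference was simulated, they recovered 196 and 198. In its own simulation, where only the 200 changed genes differed between the tags, the tag comparison recovered 198. In the data 51% of all genes were called between the tags, a setting not simulated for this comparison.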

Additional observations from a re-analysis of the deposited data

Results flagged for a closer look

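For 14 factor genes the E2 change had opposite signs in the tags. The difference was not tested, because each tag and treatment had 1 library, and groups of 2 allowed no check for a single outlying library. By size, the E2 log2 fold change in B212 minus that in A4 was −0.71 for EEF1A1, where A4 rose by 0.64 and B212 stood at −0.07. It was 0.30 for EEF2K, 0.18 for EIF5AL1, 0.16 for EIF2B5, 0.15 for EIF4G3, 0.14 for EIF1AD and 0.14 for EIF5B. It was 0.0463 for EEF1A2 and 0.0426 for EIF2B2. It was −0.14 for EIF6, −0.13 for EIF3G, −0.11 for EIF4E3, −0.0804 for EEF1D and −0.0715 for EIF3F. For 5 of the 14 the counting intervals of both tags excluded 0. The share of factor genes with opposite signs was 25.9%, beside 29.8% of all genes tested.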

How the results depend on the processing

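With no block, 0 factor genes were called for E2 under every scaling, filter, tool and left-out library tried. With the tag as a replicate block the count was 10. In blocked fits it was also 10 under library size only (8 higher and 2 lower), 6 with limma-voom, 4 with DESeq2, 3 with DESeq2 size factors and 2 without the length and GC trend. The median E2 log2 fold change of the factor genes was 0.04 with no block, and 0.0302 with DESeq2 size factors and with DESeq2, 0.0184 with library size only, 0.0476 with no filter and 0.0318 with at least 10 counts in every library. With the replicate block it was 0.0307 with DESeq2 size factors and with DESeq2, 0.0183 with library size only and 0.0267 with the trend removed. Leaving out 1 library gave −0.0625 to 0.195. Between the tags, the count of 36 was 17 with no treatment term (28.6% of all genes) and 5 (1 higher and 4 lower) for changes of 0.5 or more on the log2 scale, where 24.6% of all genes were called; leaving out a library gave 4 to 28, and the other settings 27 to 40. Their median of −0.16 was −0.0945 with library size only and −0.264 with the trend removed, and −0.213 to −0.113 without 1 library. In fits with no block, leaving out a library turned the sign of 32 of 54 factor genes with E2 and of 9 between the tags. Such a fit is unbalanced for the tag, so its E2 values carry tag differences. EEF1A1 with E2 ranged from −0.0357 to 0.60, EIF3I with E2 from −0.0658 to 0.57 and EEF1A1 between the tags from −0.0354 to 0.59. In the blocked fit, taking out the length and GC trend gave 9 factor genes the opposite sign to the fit with no block, among them EIF1B (−0.10) and EIF3J (−0.05), none of them called. Scaling by library size only turned the sign of EIF2B1, EIF2B2, EIF6 and EEF1A2 with E2 and of EEF2K, EIF4ENIF1 and EIF4H between the tags, none of them called. No change smaller than 1 on the log2 scale was simulated, so the smallest change that 2 libraries a group resolve was not measured.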
